A study of Mus musculus with 14 samples.

Results

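The genes described here are natural killer (NK) cell receptors of the lectin-like families Klra, Klrb, Klrc, Klrd, Klre, Klrg, Klri and Klrk, the Clec2 family, and the receptors Ncr1, Cd226, Cd96, Tigit, Crtam, Slamf6 and Slamf7. They were chosen by gene symbol, with earlier results of these data known: 36 of the 22180 genes that the array named by 1 symbol belonged to the set. The RNA came from bone marrow cells of female NCR-NU mice, a nude strain that lacks a thymus, sorted as positive for Sca1 and negative for Kit. Cancer-free mice had received Matrigel, the gel matrix that served as the control, and tumor-bearing mice carried primary tumors matched for size. The 14 biological replicates, 1 array each, comprised 3 young cancer-free, 3 young tumor-bearing, 5 old cancer-free and 3 old tumor-bearing mice. The tumor's cell type, the ages in weeks and whether marrow was pooled are not given in the sources used here. All values are log2 RMA values, so a difference of 1 is a doubling. They come from bulk cells, in which fewer cells of a type and less RNA per cell cannot be told apart.

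NK cells weigh signals from activating and inhibitory receptors before they kill a target cell or release interferon gamma. Activating receptors such as Klrk1 (NKG2D) and Ncr1 (NKp46) signal through adaptor proteins, while Klrc1 (NKG2A), bound to Klrd1 (CD94), inhibits when it meets the nonclassical class I molecule Qa-1. The Klrb1 receptors bind Clec2 proteins encoded beside them, and Tigit, Cd96 and Cd226 compete for nectin-like ligands such as Pvr. Many of these receptors are also carried by innate-like and activated T cells.

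The families sit close together in the genome. In the RefSeq annotation of GRCm38.p6, 28 of the 36 members lay on chromosome 6, most of them within the NK gene complex, with Klrg2 first and Klra2 last in order along it. The remaining members were Cd96 and Tigit on chromosome 16, Slamf6 and Slamf7 on chromosome 1, Ncr1 on chromosome 7, Crtam on chromosome 9, Cd226 on a further chromosome, and Klra11, which had no match. The Klra genes and some Klrb1, Klrc and Clec2 genes are related copies, so probes for them may share signal, which was not checked. A further 4 probes that named a member together with other genes were not used.

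The bases upstream of the genes that follow are shown because Clec2i and Tigit had the smallest p of the members in a tumor contrast, and Klrk1, Klrc1 and Ncr1 are receptors by which NK cells are known. Klri2 and Klrd1 have no window in the RefSeq table used. Each run holds the 250 bases before the RefSeq gene start (GRCm38.p6), 5′ to 3′ on the gene's strand, with matches to the RUNX core in capitals. The windows lie at chr6:128887337-128887586 for Clec2i (plus strand), chr6:129623865-129624114 for Klrk1 (minus strand), chr6:129678974-129679223 for Klrc1 (minus strand), chr7:4337465-4337714 for Ncr1 (plus strand) and chr16:43664185-43664434 for Tigit (minus strand).
Clec2i: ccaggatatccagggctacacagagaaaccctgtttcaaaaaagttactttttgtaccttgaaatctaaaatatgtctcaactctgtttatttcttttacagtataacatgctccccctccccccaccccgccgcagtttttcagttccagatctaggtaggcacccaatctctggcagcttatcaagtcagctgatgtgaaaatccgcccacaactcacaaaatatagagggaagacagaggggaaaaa
Klrk1: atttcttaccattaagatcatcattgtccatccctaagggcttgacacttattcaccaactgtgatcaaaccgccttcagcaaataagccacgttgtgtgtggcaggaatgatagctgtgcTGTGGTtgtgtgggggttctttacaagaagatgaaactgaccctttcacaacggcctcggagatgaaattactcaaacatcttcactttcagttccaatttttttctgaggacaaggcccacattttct
Klrc1: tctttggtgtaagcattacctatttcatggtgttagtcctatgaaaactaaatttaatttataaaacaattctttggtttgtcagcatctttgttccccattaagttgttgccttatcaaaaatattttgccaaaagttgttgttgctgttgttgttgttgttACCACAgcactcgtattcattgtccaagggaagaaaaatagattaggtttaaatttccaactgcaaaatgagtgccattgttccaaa
Ncr1: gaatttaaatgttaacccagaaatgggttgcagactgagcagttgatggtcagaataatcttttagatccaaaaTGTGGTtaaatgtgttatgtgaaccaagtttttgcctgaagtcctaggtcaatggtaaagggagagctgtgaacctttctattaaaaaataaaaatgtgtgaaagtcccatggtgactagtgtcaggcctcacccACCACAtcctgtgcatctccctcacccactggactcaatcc
Tigit: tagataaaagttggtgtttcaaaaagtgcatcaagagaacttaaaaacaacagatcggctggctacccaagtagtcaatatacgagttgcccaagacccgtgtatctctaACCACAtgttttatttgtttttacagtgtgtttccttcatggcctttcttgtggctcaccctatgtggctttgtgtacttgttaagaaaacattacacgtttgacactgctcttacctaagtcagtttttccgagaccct

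RUNX proteins are transcription factors of blood lineages, NK cells included. The RUNX core, TGTGGT on either strand, matched 9 of the 28 members with a window (32.1%) and 14.2% of all 27025 promoter windows of the same length. Among the 20 tested members with a window the match was present in 8 (40%), namely Cd96, Klrb1c, Klrc1, Klrc2, Klre1, Klrk1, Ncr1 and Tigit. Ncr1 held 2 matches, while the windows of Clec2i and of Klra5, the latter not shown, held none. The T-box core, GGTGTG, was found in 14.3% of the members' windows against 16.2% of all windows. The ETS core, AGGAAG, was in 28.6% against 29.2%, and the STAT motif, TTCNNNGAA, in 7.14% against 7.1%. Each motif was searched on both strands, and a match is a description of these letters only. Some copies within a family shared sequence: the windows of Klrc2 and Klrc3 were 70.8% identical and those of Clec2e and Clec2h 81.8%. The median was 46.0% over the 378 pairs of members. Other pairs within a family lay near or under it, such as Klrc1 and Klrc2 at 45.0%, Klra6 and Klra9 at 46.2%, and Clec2d and Clec2g at 42.1%.

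A gene was tested when its value passed 3.88, the median of the whole table, on at least 3 arrays. By that measure 25 members were tested and 11 were too dim: Clec2e, Clec2g, Clec2h, Clec2l, Klra2, Klra6, Klra11, Klra14-ps, Klrb1-ps1, Klrb1b and Klrc3. Of the tested members, Klrb1, Klra9 and Klra5 had at least 1 group mean under this level, and their differences rest on dim signal. Kit RNA lay between 5.25 and 7.03, above 3.88 on all arrays, but that level is a median and not a limit of detection. The Kit-negative sort was made on surface protein, which the arrays do not measure. Sca1 itself is encoded by Ly6a, whose level was not analysed here. Ptprc, the pan-leukocyte gene CD45, lay between 10.53 and 11.36.

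The first young tumor-bearing array and the third and the second old tumor-bearing arrays had the lowest mean correlation with the other arrays (0.899, 0.907 and 0.910, the highest being 0.942). The first young tumor-bearing array held the lowest of all 14 values for 8 of the 25 tested members (32%, against 11.6% of all tested genes). For 4 members the lowest value was on the third old tumor-bearing array (16%, against 9.88% of all tested genes) and for 3 on the second (12%, against 10.2%). At the other end, the fourth old cancer-free array held the highest value for 9 of the 25 members, against 8.46% of all tested genes. Values without the tumor-bearing arrays named here are given beside some of the results they moved.

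With a tumor, most NK receptors had lower means at each age, but arrays differed and no member passed the test. The members' median deviation from their own mean over all arrays was -0.75, -0.002 and -0.02 on young tumor-bearing arrays. On old tumor-bearing arrays it was 0.02, -0.58 and -0.29. Cancer-free arrays gave -0.01, 0.18 and 0.26 in young mice and -0.05 to 0.56 in old mice. Without the first young tumor-bearing array, 20 of 25 members were still lower in young mice. Averaged over both ages, 21 of 25 members were lower and 4 (Klrb1, Slamf7, Klrg2 and Clec2m) higher, beside 51.1% of all 13805 tested genes lower. The median difference of the members was -0.65, and that of all tested genes -0.01. In limma with Benjamini-Hochberg adjustment 0 members were called, as were 0% of all tested genes. At an unadjusted p under 0.05 there were 12 members (48%), all lower, against 10.2% of all genes and 6.01% lower. These were Clec2i, Klri2, Tigit, Klrk1, Ncr1, Klrc1, Klrd1, Klra5, Klre1, Klrc2, Klrb1f and Cd96. The unadjusted count was 8 without the second young cancer-free array, 8 without the first young tumor-bearing array, and 8 when the 2 arrays of lowest correlation were left out together. Leaving out those 2 arrays moved the averaged difference of Klrb1f from -0.63 to -0.27 and that of Klre1 from -0.66 to -0.41. No member was separated without overlap in all cancer-free against all tumor-bearing arrays (0 of 25, against 0.268% of all genes).

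**Figure D1:**
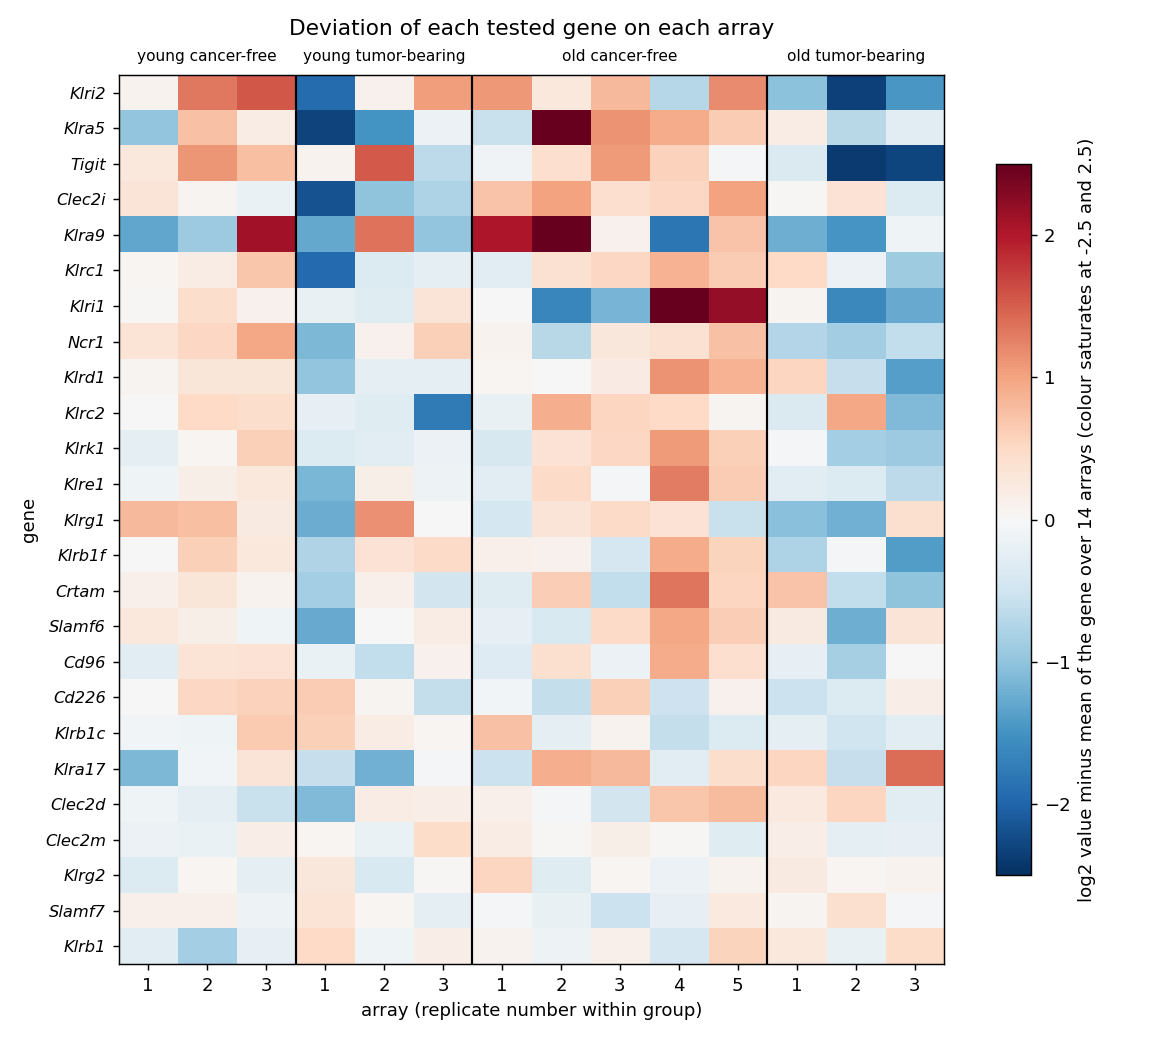
Deviation of each of the 25 tested genes from its own mean over the 14 arrays, in log2 (colour scale), with genes ordered by their tumor difference averaged over ages and arrays grouped by age and tumor status. The first young tumor-bearing array and the second old tumor-bearing array have the lowest median deviations, -0.75 and -0.58, and the fifth and the fourth old cancer-free arrays the highest, 0.56 and 0.52.

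The group means of the 2 ages gave separate views of the tumor comparison, since they share no arrays, but limma used 1 estimate of spread for both. At both ages, 18 of 25 members were lower with a tumor (72%, against 29.6% of all tested genes). The members are not independent observations: 8 had their lowest value on the first young tumor-bearing array and 9 their highest on the fourth old cancer-free array. For Klrb1, Klrg2 and Slamf7 the mean with a tumor was the higher one in both ages, and for Klra17, Clec2d, Clec2m and Klrb1c the sign of the difference varied with age, with none of these 4 past an unadjusted p under 0.05 in the interaction. Slamf7, a receptor that also marks plasma cells and some dendritic cells, lay between 9.65 and 10.58 on every array.

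Clec2i encodes Clr-g, a ligand of the Klrb1f receptor, and had the smallest tumor p of the members averaged over ages. Its values were 7.37, 7.11 and 6.88 in young cancer-free mice and 4.86, 6.04 and 6.28 in young tumor-bearing mice. Old cancer-free mice gave 7.75, 8.05, 7.46, 7.56 and 8.05, and old tumor-bearing mice 7.07, 7.41 and 6.71. Every tumor-bearing array lay below every cancer-free array of the same age. The difference was -1.40 ± 0.33 (SE) in young mice, 2.63-fold lower, and -0.71 ± 0.29 in old mice, 1.64-fold lower. Averaged over ages it was -1.06 ± 0.22 (limma adjusted p = 0.268), which equals the smallest adjusted p over all tested genes in that contrast, and by unadjusted p it ranked 8 among them. Without the first young tumor-bearing array the young difference was -0.96.

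Klri2 encodes a receptor chain that pairs with Klre1 and activates. Its values were 6.38, 7.62 and 7.85 in young cancer-free mice, 4.38, 6.40 and 7.35 in young tumor-bearing mice, 7.38, 6.56, 7.11, 5.58 and 7.49 in old cancer-free mice and 5.27, 3.97 and 4.84 in old tumor-bearing mice. The old groups did not overlap and the young groups did. In old mice the difference was -2.13 ± 0.61, 4.38-fold lower (limma adjusted p = 0.315), and averaged over ages -1.68 ± 0.46. Its partner Klre1 also separated the old groups, with 6.29 to 7.84 in cancer-free and 5.90 to 6.27 in tumor-bearing mice. Klri1, the inhibitory partner of Klre1, ranged widely among old cancer-free mice, from 3.28 to 7.91.

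Tigit, an inhibitory receptor for Pvr, gave 6.59, 7.42 and 7.07 in young cancer-free and 6.40, 7.86 and 5.66 in young tumor-bearing mice. In old cancer-free mice it gave 6.23, 6.74, 7.38, 6.90 and 6.29, and in old tumor-bearing mice 5.96, 3.93 and 4.01. The old groups were apart, with 2 of the 3 old tumor-bearing arrays near the level that separates tested from dim genes. In old mice Tigit was 4.21-fold lower with a tumor, by -2.08 ± 0.51 (limma adjusted p = 0.264). The young groups overlapped.

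**Figure D2:**
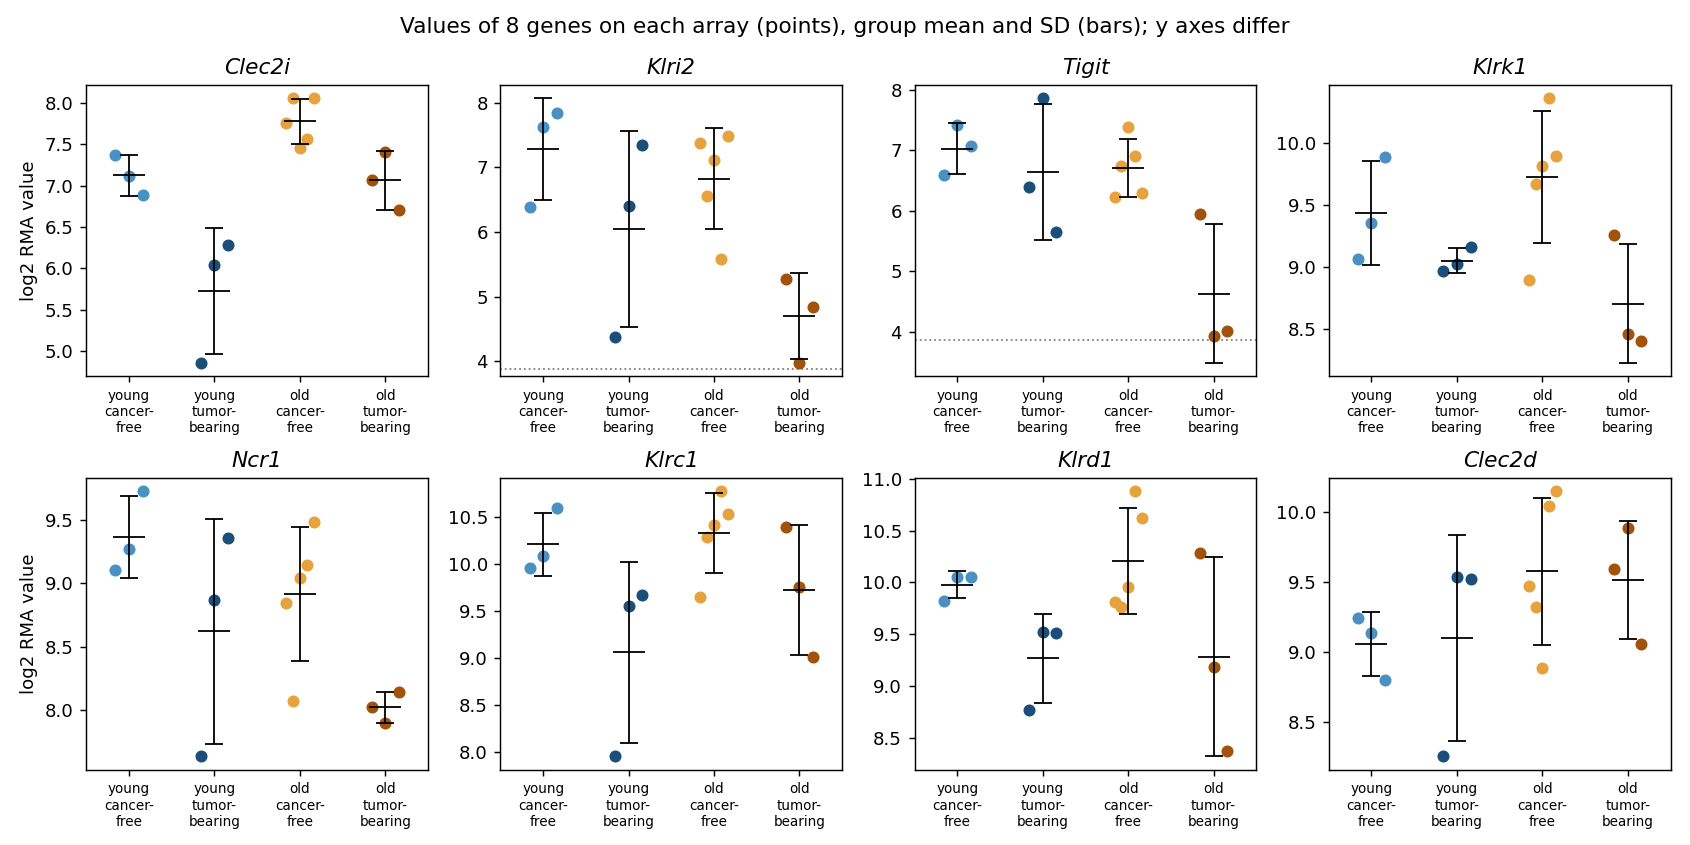
Log2 RMA values of 8 genes on each array (points), with the group mean and SD (bars), in young and old, cancer-free and tumor-bearing mice; y axes differ between panels and the dotted line in the Klri2 and Tigit panels is the level of 3.88 used to select tested genes. Clec2i separates tumor-bearing from cancer-free arrays at both ages, while Klri2 and Tigit do so in old mice.

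Klrk1, the activating receptor for stress ligands such as H60b, gave 9.06, 9.35 and 9.89 in young cancer-free, 8.96, 9.02 and 9.16 in young tumor-bearing, 8.89, 9.67, 9.81, 10.36 and 9.89 in old cancer-free and 9.26, 8.45 and 8.40 in old tumor-bearing mice. Both pairs of groups overlapped. The difference was -1.02 ± 0.30 in old mice, 2.03-fold lower (limma adjusted p = 0.33), and -0.39 ± 0.34 in young mice (limma adjusted p = 0.91). The young difference was -0.16 without the third young cancer-free array.

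Ncr1, an activating receptor found almost exclusively on NK and other innate lymphoid cells, gave 9.10, 9.28 and 9.73 in young cancer-free, 7.63, 8.87 and 9.36 in young tumor-bearing, 8.84, 8.07, 9.04, 9.14 and 9.49 in old cancer-free and 8.03, 7.90 and 8.14 in old tumor-bearing mice. The groups overlapped at both ages, in old mice by 1 cancer-free array. Averaged over ages it was 1.77-fold lower with a tumor (-0.82 ± 0.27, limma adjusted p = 0.379). The young difference was -0.75, and -0.25 without the first young tumor-bearing array.

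The inhibitory pair Klrc1 and Klrd1 had lower means with a tumor in both ages. Klrc1 gave 9.96, 10.08 and 10.59 in young cancer-free, 7.96, 9.55 and 9.67 in young tumor-bearing, 9.64, 10.28, 10.41, 10.77 and 10.53 in old cancer-free and 10.39, 9.76 and 9.01 in old tumor-bearing mice. Klrd1 gave 9.83, 10.06 and 10.05 in young cancer-free, 8.78, 9.52 and 9.51 in young tumor-bearing, 9.81, 9.76, 9.96, 10.88 and 10.62 in old cancer-free and 10.29, 9.18 and 8.38 in old tumor-bearing mice. For both genes the young groups were apart and the old groups overlapped. Averaged over ages the difference was -0.88 ± 0.30 for Klrc1 and -0.82 ± 0.28 for Klrd1 (limma adjusted p = 0.396 for each). Leaving out the 2 arrays of lowest correlation brought these to -0.42 and -0.47. In old mice alone the differences were -0.60 for Klrc1 and -0.92 for Klrd1; they were -0.25 and -0.47 without the third old tumor-bearing array and -0.94 and -1.43 without the first. In young mice they were -1.15 and -0.71, and -0.60 and -0.46 without the first young tumor-bearing array. Klrc2 (NKG2C), the activating partner of Klrd1, lay at 4.69 to 5.20 in young cancer-free and 2.94 to 4.50 in young tumor-bearing mice.

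Clec2d and Klrb1c did not pass an unadjusted p under 0.05 in any tumor contrast. Clec2d, the broadly expressed ligand Clr-b of the inhibitory receptor Klrb1b, gave 9.24, 9.13 and 8.80 in young cancer-free, 8.25, 9.53 and 9.52 in young tumor-bearing, 9.47, 9.32, 8.88, 10.04 and 10.15 in old cancer-free and 9.59, 9.89 and 9.06 in old tumor-bearing mice, with overlap at both ages. Klrb1c, the NK1.1 antigen in strains that carry it, gave 5.40, 5.36 and 6.11 in young cancer-free, 6.06, 5.64 and 5.52 in young tumor-bearing, 6.20, 5.22, 5.54, 4.87 and 5.13 in old cancer-free and 5.25, 4.96 and 5.20 in old tumor-bearing mice. Its groups overlapped within each age too.

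In young mice alone, 19 of 25 members were lower with a tumor, beside 52.8% of all tested genes, with a median of -0.39. In limma with Benjamini-Hochberg adjustment 0 members and 0% of all tested genes were called. At an unadjusted p under 0.05 there were 4 members (16%, against 5.4% of all genes), of which Clec2i, Klrc1 and Klrc2 were lower (3.3% of all genes) and Klrb1 higher. Groups did not overlap for 5 members, against 12.9% of all genes. The 4 lower ones were Clec2i, Klrc1, Klrc2 and Klrd1 (7.37% of all genes), and Klrb1 was the higher one. Klrb1, a receptor of the Nkrp1 family, was dim, at 3.48, 2.92 and 3.57 in cancer-free and 4.27, 3.66 and 3.93 in tumor-bearing young mice. Its values in old mice were 3.85, 3.64, 3.90, 3.35 and 4.33 when cancer-free and 4.02, 3.58 and 4.23 with a tumor. The unadjusted count was 2 without the second or the third young cancer-free array or without the first young tumor-bearing array, and 2 without the 2 arrays of lowest correlation. It was also 2 after another normalization, cyclic loess, and 2 with a stricter filter that left 18 members. Leaving out the first young cancer-free array gave 6.

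In old mice alone, 21 of 25 members were lower, beside 48.7% of all tested genes, with a median of -0.62. Again limma called 0 members and 0% of all tested genes after adjustment. At an unadjusted p under 0.05 there were 8 members (32%, against 9.76% of all genes and 5.56% lower), namely Tigit, Klri2, Klrk1, Klrb1f, Klre1, Ncr1, Klrd1 and Clec2i. All 8 were lower. Klrb1f, the receptor that binds Clec2i, lay at 7.91 to 9.25 in cancer-free and 6.92 to 8.27 in tumor-bearing mice, 8.58 ± 0.51 (SD, n = 5) against 7.58 ± 0.68 (n = 3). Groups did not overlap for Tigit, Klri2, Klre1 and Clec2i, all lower, against 6.15% of all genes and 3.04% lower. The count at that p was 10 without the first or the third old cancer-free array, 7 without the fourth and 5 without the fifth. It was 7 without the second and 6 without the third old tumor-bearing array, and 4 with the replicate number as a block.

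**Figure D3:**
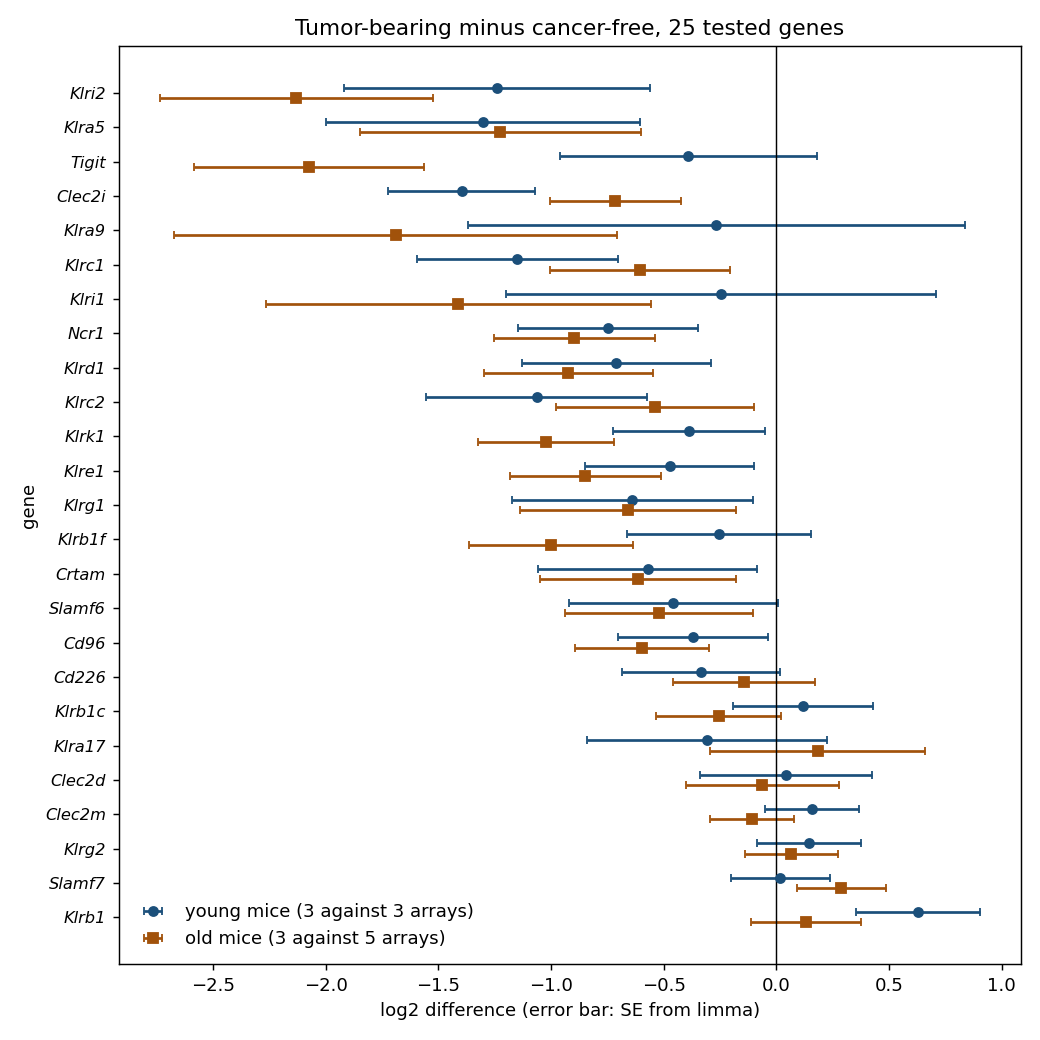
Difference of tumor-bearing minus cancer-free mice in log2 for the 25 tested genes, in young mice (circles, 3 against 3 arrays) and old mice (squares, 3 against 5), with the standard error from limma. Of the 25, 18 lie below 0 at both ages, Clec2i in young mice at -1.40 and Klri2 and Tigit in old mice at -2.13 and -2.08.

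Whether the tumor difference itself differed between ages was tested as an interaction. Limma called 0 members and 0% of all tested genes, and at an unadjusted p under 0.05 there was 1 member (4%, against 4.42% of all genes), Tigit. For Tigit the old difference exceeded the young one by -1.68 ± 0.77 (limma adjusted p = 0.976). Clec2i had the opposite sign, 0.68 ± 0.44, and Klrk1 had -0.64 ± 0.45, both with an adjusted p of 0.976 in limma. The Clec2i value was 0.25 without the first young tumor-bearing array, and the Tigit value -1.07 without the second. The unadjusted count was 2 when the first or the third young tumor-bearing array or the first old cancer-free array was left out, and 0 when any of 8 others was: the first and the third young cancer-free, the second young tumor-bearing, the second, the third and the fourth old cancer-free, and the second and the third old tumor-bearing arrays.

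Genes that act with the receptors were read beside them. All 16 tested NK effectors and lineage factors were lower with a tumor averaged over ages, with a median of -0.37. Limma called none, and 7 had an unadjusted p under 0.05. Of all tested genes, 51.1% were lower in that contrast and 10.2% passed that p, 6.01% lower. In young mice all 16 were lower, 2 of them at that p, against 52.8% and 3.3% of all tested genes. In old mice 13 were lower and 3 higher, with 2 lower and 1 higher at that p. Of all tested genes in old mice, 48.7% were lower and 9.76% passed that p. Gzmm had a mean of 7.22 in old cancer-free and 7.78 in old tumor-bearing mice. Averaged over ages, Id2, a factor that innate lymphoid cells require, differed by -0.70 ± 0.20 (limma adjusted p = 0.337). The chemokine Xcl1 differed by -0.72 ± 0.21 (limma adjusted p = 0.364). Their mean over the 16 genes ran from 8.45 to 8.76 across young cancer-free arrays, 8.03 to 8.29 in young tumor-bearing, 8.19 to 8.65 in old cancer-free and 7.74 to 8.19 in old tumor-bearing mice, so the young groups were apart.

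Of 13 signalling adaptors, 10 were lower averaged over ages, 3 at an unadjusted p under 0.05, and limma called none. The shares of all tested genes were 51.1% lower, and 6.01% lower at that p. Sh2d1b1, an adaptor of the Slam receptors, differed by -1.19 ± 0.38 (limma adjusted p = 0.377) and its relative Sh2d1a by -0.83 ± 0.27 (limma adjusted p = 0.38). Among 9 receptor ligands outside the Clec2 family, 7 were lower and limma called none. At an unadjusted p under 0.05 there were 1 higher and 2 lower, against 10.2% of all tested genes. H60b, a Klrk1 ligand, differed by -0.62 ± 0.22 (limma adjusted p = 0.406) and Pvr, the ligand of Tigit, Cd96 and Cd226, by -0.64 ± 0.28 (limma adjusted p = 0.469).

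Markers of T cells, which share several of these receptors, had lower means beside the members in young mice. Of 12 tested T cell markers, 10 were lower with a tumor in young mice (median -0.88, 3 at an unadjusted p under 0.05). In old mice 7 were lower (median -0.05, 0 at that p), and limma called none at either age. Of all tested genes, 52.8% were lower in young and 48.7% in old mice, 3.3% and 5.56% at that p. The mean of the 12 markers ran from 6.96 to 7.90 in young cancer-free, 6.44 to 7.36 in young tumor-bearing, 7.02 to 8.16 in old cancer-free and 7.48 to 7.89 in old tumor-bearing mice. Cd3d, a chain of the T cell receptor complex, lay between 6.07 and 10.33 over all arrays, and Cd3g, another chain, differed by -0.62 ± 0.24 averaged over ages (limma adjusted p = 0.412). All 12 were bright enough to test, and their part in the receptor differences was not tested. Averaged over ages, the other markers gave medians of -0.08 for group 2 innate lymphoid cells (4 of 7 lower), 0.01 for B cells (4 of 8), -0.25 for plasmacytoid dendritic cells (6 of 10), -0.08 for monocytes and macrophages (5 of 9), 0.03 for neutrophils (4 of 10) and 0.13 for erythroid cells (0 of 3). Limma called none of them, and at an unadjusted p under 0.05 each of these lists had 1 gene, lower, except neutrophils and erythroid cells with 0. Beside them, 51.1% of all tested genes were lower, 6.01% at that p.

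With age, the members had no common direction and Clec2i had the smallest p in every one of the age contrasts. Averaged over tumor status, 13 of 25 were higher in old mice and 12 lower, with a median of 0.08. In limma with Benjamini-Hochberg adjustment 0 members were called, against 12 genes of the whole table (0.0869%). At an unadjusted p under 0.05 there were 4 members (16%, against 13.4% of all genes), a share near that of the table. Clec2i, Klra17 and Klra5 were higher and Tigit lower. No member was separated without overlap over all old against all young arrays (0 of 25, against 0.529% of all genes). The unadjusted count was 2 without the second young tumor-bearing, the second old cancer-free or the first old tumor-bearing array. For all genes, the count of 12 adjusted calls was 0 without the third young cancer-free array and 74 without the third old tumor-bearing array.

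Clec2i was 1.99-fold higher in old mice averaged over tumor status, by 0.99 ± 0.22 (limma adjusted p = 0.0847). In cancer-free mice the difference was 0.65 ± 0.29 and in tumor-bearing mice 1.34 ± 0.33, and its old and young arrays were apart in both. Tigit was lower in old mice, by -1.16 ± 0.38 averaged over tumor status (limma adjusted p = 0.224). Klra17 encodes Ly49Q, known from plasmacytoid dendritic and myeloid cells. It gave 4.99, 6.06 and 6.44 in young cancer-free, 5.55, 4.92 and 6.10 in young tumor-bearing, 5.58, 7.04, 6.93, 5.83 and 6.56 in old cancer-free and 6.66, 5.54 and 7.52 in old tumor-bearing mice. The ages overlapped, and the difference was 0.80 ± 0.36 (limma adjusted p = 0.352). Klra5 (Ly49E) gave 3.36, 5.08 and 4.54 in young cancer-free, 2.03, 2.84 and 4.20 in young tumor-bearing, 3.79, 7.01, 5.47, 5.27 and 4.98 in old cancer-free and 4.54, 3.64 and 4.06 in old tumor-bearing mice. Its ages overlapped too.

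In cancer-free mice 17 of 25 members were higher with age and limma called 0 members and 0% of all genes. At an unadjusted p under 0.05 only Clec2i passed among the 25 (4%, against 7.66% of all genes), and only Clec2i had groups that did not overlap (against 7.3% of all genes). Klrb1 and Klra5 followed it by p, with 0.49 ± 0.24 and 0.98 ± 0.62. Klrb1 gave 0.29 without the second young cancer-free array, and Klra5 gave 0.49 without the first young cancer-free and 0.55 without the second old cancer-free array. The unadjusted count was 0 without the second or the third young cancer-free, the second or the fifth old cancer-free or the first old tumor-bearing array, and 2 without the fourth old cancer-free array.

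In tumor-bearing mice 11 of 25 members were higher in old than in young mice, and limma called 0 members and 0% of all genes. Clec2i (higher) and Tigit (lower) passed an unadjusted p under 0.05 (8%, against 10.1% of all genes). Tigit differed by -2.01 ± 0.57 (limma adjusted p = 0.26) and Klri2 by -1.35 ± 0.68 (limma adjusted p = 0.522). Klri2 gave -0.70 without the third young tumor-bearing array, -2.18 without the first, and -2.26 without the 2 arrays of lowest correlation. Groups did not overlap for Clec2i and for Klrb1c, which was lower by -0.61 ± 0.31, against 13% of all genes. Klrb1c was named here after its values were seen. The unadjusted count was 6 without the first young tumor-bearing array, and 4 without the third young tumor-bearing, the second old tumor-bearing or the third old tumor-bearing array.

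**Figure D4:**
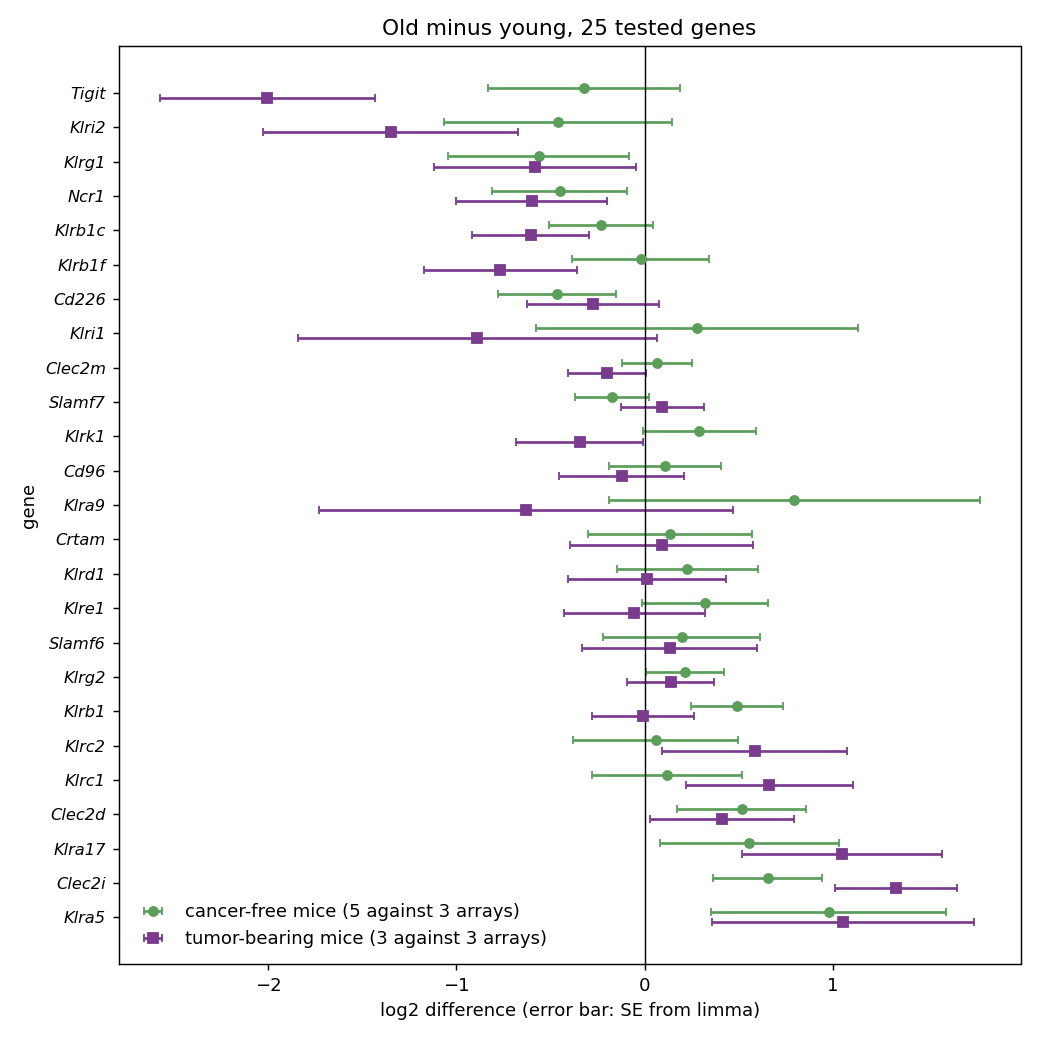
Difference of old minus young mice in log2 for the 25 tested genes, in cancer-free mice (circles, 5 against 3 arrays) and tumor-bearing mice (squares, 3 against 3), with the standard error from limma. Clec2i lies above 0 in both, at 0.65 and 1.34, and Tigit has the lowest value, -2.01, in tumor-bearing mice.

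Markers of other cell types were read for age too. Of 12 T cell markers, 9 were higher in old tumor-bearing than in young tumor-bearing mice (median 0.94, 6 at an unadjusted p under 0.05, limma calling 0), led by Cd8a at 1.99 ± 0.59 (limma adjusted p = 0.281). Of all tested genes, 10.1% passed an unadjusted p under 0.05 in that contrast. In cancer-free mice 8 of the 12 were higher with age (median 0.13), and limma called 0. At an unadjusted p under 0.05 there were 0, against 7.66% of all tested genes. The 10 markers of plasmacytoid dendritic cells had lower means with age, averaged over tumor status (median -1.06, 8 at an unadjusted p under 0.05, limma calling 0). In that contrast 52% of all tested genes were lower and 13.4% passed that p. The mean of the 10 markers ran from 6.92 to 7.85 in young cancer-free, 7.09 to 7.79 in young tumor-bearing, 5.66 to 7.07 in old cancer-free and 6.02 to 6.34 in old tumor-bearing mice. All 9 monocyte and macrophage markers were lower as well (median -0.56), and limma called 1 of them, Itgam, against 0.0869% of all tested genes. The part of these cells in the age differences of the receptors was not tested. Of the NK effectors and lineage factors, 6 of 16 were higher and 10 lower with age. Limma called 0, and 5 passed an unadjusted p under 0.05, against 13.4% of all tested genes. Gzmm was higher by 0.83 ± 0.18 (limma adjusted p = 0.0822) and Gzmb differed by -1.64 ± 0.43 (limma adjusted p = 0.133), both granzymes of killer cells.

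The other tested members, given by range over all 14 arrays, were Cd226, an activating receptor for Pvr, at 7.02 to 8.25, Cd96 at 7.41 to 9.17, Crtam, a receptor for Cadm1, at 5.15 to 7.49, and Slamf6, a self-binding receptor, at 5.53 to 7.77. Klrg1, an inhibitory receptor for cadherins, lay at 4.19 to 6.57, Klrg2 at 4.53 to 5.46, and Clec2m, a further Clec2 gene, at 3.87 to 4.63. Klra9 (Ly49I) lay at 1.54 to 6.11 and passed 3.88 on 5 arrays.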

How the data were processed

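The authors deposited log2 values per probe, which the submitters' processing notes trace to RMA (oligo 1.32.0, R 3.2.0). The array build and any filter are not given in the sources used here. Arrays give no read depth; their number limits the precision. Of 41345 probes, 23521 carried 1 gene symbol, and the brightest probe of a gene on average was used. A gene was tested if above the table's median on at least 3 arrays. The 4 group means of the 14 arrays were fitted in limma 3.58.1 (R 4.3.3, with no variance trend; degrees of freedom were 10 residual and 3.86 prior). There were 7 contrasts, tested on both sides and adjusted by Benjamini-Hochberg over all 13805 tested genes, at 0.05.

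The choice of members, of accompanying lists and of which genes to name was made with earlier results of these data known. Values on every array were given for Klrk1, Klrd1, Klrc1, Ncr1, Klrb1c and Clec2d and for up to 3 members with the smallest p in a contrast. Of each accompanying list, up to 2 genes with the smallest p were named. Promoter windows came from RefSeq, and 35 of 36 members matched its gene table. The members' counts and the differences of members named in a contrast were recomputed under 24 alternatives in pairwise contrasts and 23 in the others, fewer where a stricter filter dropped a gene (filter, normalization, variance model, probe choice, replicate number, arrays left out). Genes of the accompanying lists were not.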

Additional observations from a re-analysis of the deposited data

How the results depend on the processing

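In limma, 0 members were called after adjustment in all 7 contrasts under the alternatives run. These numbered 24 for pairwise contrasts and 23 for the averages and the interaction. No difference of a member named in a contrast changed sign under them, but those of other members did. In cancer-free mice 8 of 25 members were lower with age. The count was 11 without the first young cancer-free array and 14 with the replicate number as a block. In the interaction 18 members were below 0, and 12 with that block. The alternative without the 2 arrays of lowest correlation was chosen after seeing the data. Fits on the compared groups only were made for the pairwise contrasts. Unadjusted counts of members for the tumor averaged over ages ran from 8 to 13, and for all genes the adjusted count for age ran from 0 to 80, the highest after median centring. Some replicate numbers are shared by groups, and over 18 same-numbered pairs the correlation of deviations ran from -0.0762 to 0.0887. Pairs with different numbers were not examined, so these values do not settle whether the numbers pair the arrays. With the replicate number as a block (residual degrees of freedom 6), 0 members were called in any contrast. At an unadjusted p under 0.05 the tumor count in old mice went from 8 to 4, and that for age from 4 to 7. The 12 adjusted calls over all genes for age went to 0. Only old cancer-free mice had replicates 4 and 5, so the block in effect left out those arrays. Their median deviations of the members were the highest, 0.52 and 0.56. The change in counts therefore does not show an effect of pairing. The number of arrays, 3 in the smallest groups, limits what could be called.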
